A study of Danio rerio with 32 samples.

Results

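Expression of 5 genes that make, remove or sense retinoic acid was followed in whole zebrafish embryos exposed to all-trans retinoic acid, valproic acid or folic acid. The genes were chosen by Ensembl identifier from the 15710 genes of the deposited table, and all 5 were measured in all 32 libraries. They are CYP26A1 (ENSDARG00000033999), 2 genes that share the name DHRS3 (ENSDARG00000044803, called the first DHRS3 gene here, and ENSDARG00000044982, called the second), ALDH1A2 (ENSDARG00000053493) and rxrbb (ENSDARG00000002006). Exposure lasted 4 h and ended at 7 h after fertilization, when zebrafish embryos are gastrulating. There were 8 libraries in each of 4 groups: retinoic acid, valproic acid, folic acid (the negative control of the design) and a control labelled NT. All groups, control included, were kept in Dutch standard water with 0.01% of a solvent spelled DSMO in the labels. Doses, fish strain, number of embryos per library and the relation between libraries of a group are not in the labels. The p-values therefore rest on variation among libraries that may be technical only. Library titles are numbered, and splitting the numbers 1 to 48 into 4 runs of 12 puts 2 libraries of every group in each run, here called a set. The labels do not say what the sets stand for.

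Retinoic acid is made from vitamin A in steps. Retinol is oxidized to retinal, and retinal is oxidized irreversibly to retinoic acid, in the early embryo mainly by the dehydrogenase ALDH1A2. DHRS3 works against this flow by reducing retinal to retinol, and CYP26A1 is a cytochrome P450 that hydroxylates retinoic acid and so marks it for removal. Retinoic acid binds receptors of the RAR family, which act on DNA as pairs with a retinoid X receptor. The gene rxrbb encodes 1 of the fish retinoid X receptors. In vertebrate gastrulae the balance of synthesis and removal sets how much retinoic acid reaches the future hindbrain and trunk.

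The values are normalized expression on a log2 scale, so that a difference of 1 is a 2-fold difference. Differences, their SE and their 95% confidence intervals come from 1 limma fit across all genes, and a gene was called at a Benjamini-Hochberg adjusted p under 0.05. The scale is not divided by gene length, so levels are compared between groups and not between genes. In whole embryos, fewer cells of a type and less RNA per cell cannot be told apart. Of 16 measured markers of gastrula tissues (such as tbxta of the axial mesoderm and krt4 of the enveloping layer), 3 were called in retinoic acid, against 0.732% of all genes. These were SOX3 of the neural ectoderm (0.33), otx2a of the same tissue (-0.39) and the organizer gene chrd (-0.37). In valproic acid 3 were called, all lower, against 15.4% of all genes called lower, namely SOX17 of the endoderm (-1.09), otx2a (-0.38) and the ventral gene vent (-0.37), and in folic acid none was. Their summed level ranged from 17.18 to 17.68 in retinoic acid, from 17.34 to 17.60 in valproic acid, from 17.39 to 17.56 in folic acid and from 17.33 to 17.72 in control. The sum was taken before the log, so krt4 (median 16.19) and krt5 (15.74) of the enveloping layer make up most of it. The next highest marker was chrd (13.79), and changes in the weaker markers hardly show in this sum. No marker was at 0, and their part in the results was not tested. Depth was gauged by the estimated reads of the gene at a library's lower quartile, which ran from 12 to 52. The library of retinoic acid replicate 3, with title number 15, stood apart from its group in several genes of the receptor and coregulator lists described further on, so values without it are given for the retinoic acid comparison with control. Without it the differences of CYP26A1 (1.51) and the first DHRS3 gene (1.01) kept their calls, and that of rxrbb was -0.055. Those of the other genes are given with each gene. This library was not one of those averaged in the valproic acid differences, and no valproic acid call of a gene described here ended without it. It does enter the estimate of the spread, which all groups share. Without it 5325 genes were called in valproic acid against control, and with it 4919.

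Retinoic acid raised CYP26A1 and the first DHRS3 gene and lowered ALDH1A2 by a smaller amount, and rxrbb was not called. The second DHRS3 gene lay higher in all 8 retinoic acid libraries than in any control library, and its adjusted p was just over the threshold. With the set as a replicate block in the fit it passed (limma adjusted p = 0.00029). In the main fit, without the block, 2 of the 5 genes were thus called higher, against 0.592% of all genes tested, and 1 was called lower, against 0.14% of all genes. The 2 rises are in transcripts of enzymes that remove the acid itself or its precursor retinal, and the fall is in that of a synthesis enzyme. Enzyme activity and retinoid levels are not part of these data. The ALDH1A2 call ended in 3 of 11 other settings. Because the genes were chosen with earlier results of these data known, these counts describe the genes and do not test them.

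**Figure D1:**
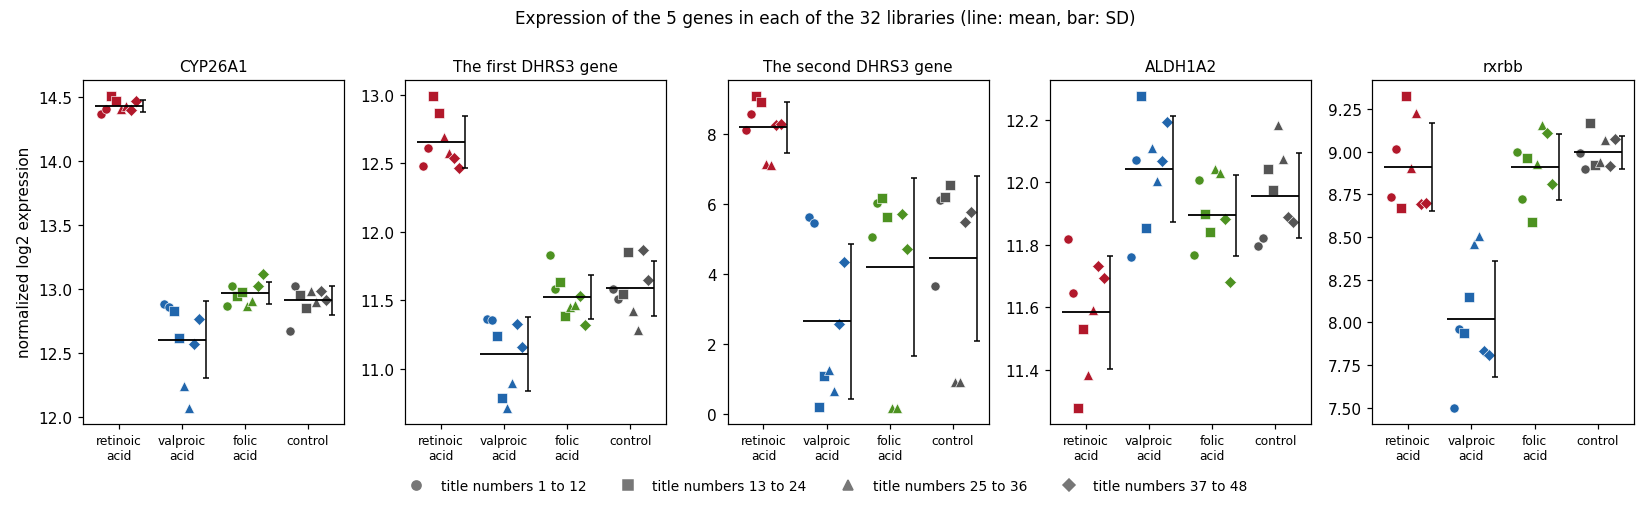
Normalized log2 expression (vertical axes, 1 panel per gene) of the 5 genes in the 8 libraries of each group, with the mean as a line, the SD as a bar and the set of title numbers as the marker shape. In the CYP26A1 panel the 8 retinoic acid libraries sit between 14.37 and 14.51, above every library of the other groups, and in the rxrbb panel the valproic acid libraries sit between 7.50 and 8.51, below every other library.

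CYP26A1, the enzyme that removes retinoic acid, had a lowest, median and highest value of 14.37, 14.42 and 14.51 in retinoic acid libraries, against 12.67, 12.93 and 13.03 in control libraries. The retinoic acid libraries lay closer together than those of any other group, with an SD of 0.048, against 0.11 in control. The groups did not overlap, which held for 0.382% of all genes in this direction. The difference was 1.52 (SE 0.0829, interval 1.35 to 1.69, limma adjusted p = 3.3e-15), or 2.87-fold. By its p-value CYP26A1 ranked 1 of 15710 genes in this comparison, and by size it was number 30 among the called rises. Within the sets of title numbers, the difference from control was 1.53 in numbers 1 to 12, 1.59 in 13 to 24, 1.48 in 25 to 36 and 1.48 in 37 to 48. The size of the response did not differ detectably between the sets (limma F test, adjusted p = 0.97), a test that 0% of all genes passed, with 1176 genes at an unadjusted p under 0.05.

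The first DHRS3 gene, a retinal reductase, had a lowest, median and highest value of 12.46, 12.59 and 12.99 in retinoic acid libraries, against 11.28, 11.57 and 11.87 in control libraries. All 8 retinoic acid libraries lay above all 8 control libraries. The difference of 1.06 (SE 0.10, limma adjusted p = 8.4e-09) was 2.09-fold, with an interval of 1.81-fold to 2.41-fold. It was 1.0 in title numbers 1 to 12, 1.23 in 13 to 24, 1.28 in 25 to 36 and 0.74 in 37 to 48. The variation of this response between sets did not pass over all genes (limma F test, unadjusted p = 0.054, adjusted p = 0.67), a test that 0% of all genes passed. Two-sided exact permutation tests of 8 against 8 libraries gave p = 0.000155 for CYP26A1, for this gene and for the second DHRS3 gene, which is the smallest p that 12870 permutations can give.

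The second DHRS3 gene was close to the lower limit of detection in some libraries outside retinoic acid, and its values fall in steps that can be read as single reads. Estimated in this way, as the number of distinct lower values in the same library and taking the lowest value as no read, it had 147 and 190 reads in the retinoic acid libraries numbered 1 to 12, against 9 and 27 in control. In numbers 13 to 24 it had 262 and 299 reads in retinoic acid, against 31 and 68 in control. In numbers 25 to 36 it had 96 and 86 reads in retinoic acid, against 2 and 0 in control. In numbers 37 to 48 it had 158 and 190 reads in retinoic acid, against 35 and 31 in control. The retinoic acid libraries were higher in every set, and the lowest of them had more estimated reads than the highest control library. A count of 0 allows up to 3 reads, for counting error only.

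On the log2 scale the lowest, median and highest values of the second DHRS3 gene were 7.10, 8.26 and 9.09 in retinoic acid and 0.90, 5.62 and 6.55 in control. The difference of 3.74 had a wide interval, 1.81 to 5.66, and limma gave an adjusted p of 0.051. Its level also varied with the set of title numbers. The gene differed between sets in a fit with group and set (limma F test, adjusted p = 6.8e-05), which held for 30.2% of all genes, and none of the other 4 genes passed this test. The difference between retinoic acid and control was 3.45, 2.63 and 2.65 in the sets numbered 1 to 12, 13 to 24 and 37 to 48. In the set numbered 25 to 36 it was 6.21 on the fitted scale, where both control libraries were at 0.90 and the size is not exact. The variation of this response between sets did not pass over all genes (limma F test, unadjusted p = 0.0013, adjusted p = 0.53), a test that 0% of all genes passed. The inexact size enters it. Without the set numbered 25 to 36 the difference was 2.91, and the gene passed (adjusted p = 0.032). With the set as a replicate block in the fit it passed as well (limma adjusted p = 0.00029). It also passed when the fit held only the retinoic acid and control libraries (adjusted p = 0.01), and not without retinoic acid replicate 3 (difference 3.61, adjusted p = 0.10).

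**Figure D2:**
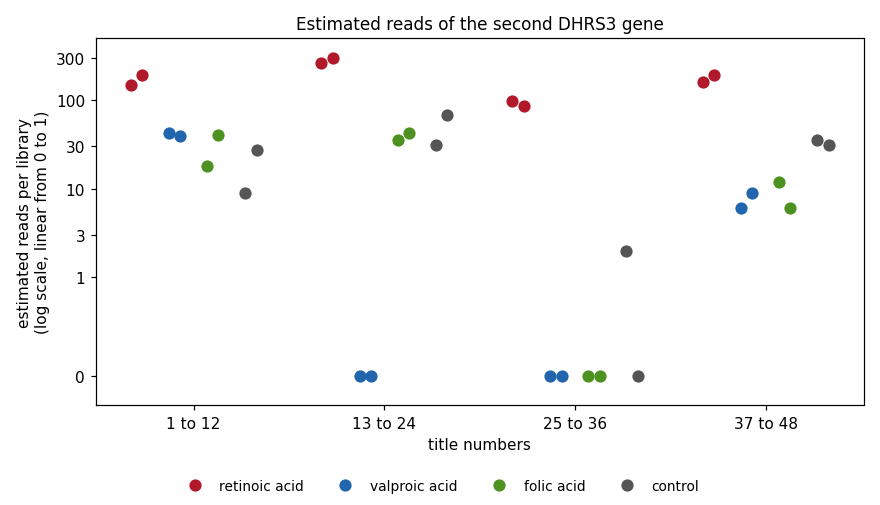
Estimated reads of the second DHRS3 gene (vertical axis, log scale that is linear from 0 to 1) in each library, by set of title numbers and group. Retinoic acid libraries have 86 to 299 reads and control libraries 0 to 68, and in the set numbered 25 to 36 every library of the other 3 groups has 2 reads or fewer.

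ALDH1A2, which makes retinoic acid, had a lowest, median and highest value of 11.28, 11.62 and 11.82 in retinoic acid libraries, against 11.80, 11.93 and 12.18 in control libraries. The groups touched, since the highest retinoic acid library lay just above the lowest control library. The difference was -0.37 (SE 0.0787, interval -0.53 to -0.21, limma adjusted p = 0.0079), or 0.772 times the control level. It was -0.08 in title numbers 1 to 12, -0.60 in 13 to 24, -0.64 in 25 to 36 and -0.17 in 37 to 48, so the sign was the same in 4 of 4 sets but most of the size came from 2 of them. The variation of this response between sets did not pass over all genes (limma F test, unadjusted p = 0.012, adjusted p = 0.63), a test that 0% of all genes passed. The call ended without the set numbered 13 to 24 (-0.30, adjusted p = 0.21) or the set numbered 25 to 36 (-0.28, adjusted p = 0.29), ended with 1 mean per group and set in place of 2 libraries (adjusted p = 0.15), and held without retinoic acid replicate 3 (-0.33, adjusted p = 0.022). The two-sided exact permutation test of 8 against 8 libraries gave p = 0.000311.

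The receptor gene rxrbb had a lowest, median and highest value of 8.67, 8.82 and 9.33 in retinoic acid libraries, against 8.90, 8.97 and 9.17 in control libraries. The retinoic acid libraries lay on both sides of the control range. The difference of -0.09 (SE 0.121) did not pass (limma adjusted p = 0.97), and its interval, -0.34 to 0.16, does not include a change of the size seen for CYP26A1 or the first DHRS3 gene. It ranged from -0.30 to 0.06 over the 4 sets.

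**Figure D3:**
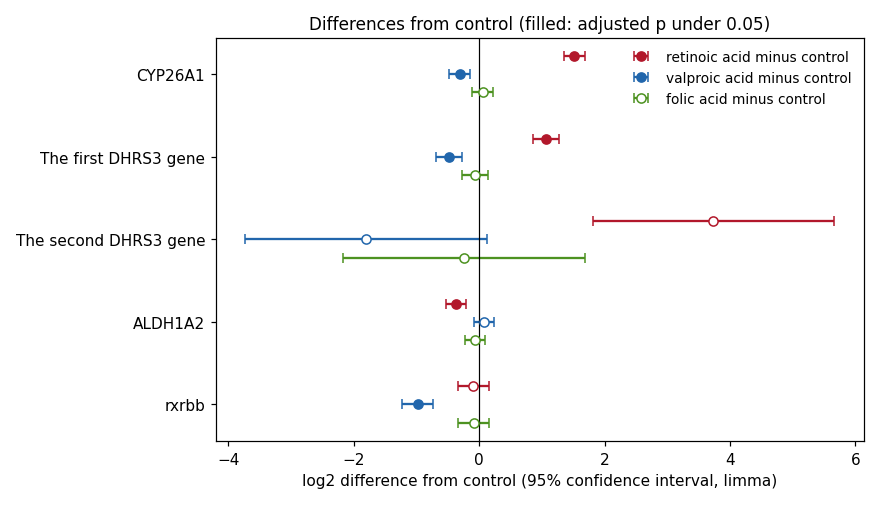
Log2 difference from control (horizontal axis) of the 5 genes in retinoic acid, valproic acid and folic acid, with 95% confidence intervals from the limma fit and filled points where the adjusted p was under 0.05. CYP26A1 and the first DHRS3 gene lie at 1.52 and 1.06 in retinoic acid and at -0.31 and -0.48 in valproic acid, and the 5 folic acid intervals all include 0.

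Valproic acid, a histone deacetylase inhibitor, lowered rxrbb, the first DHRS3 gene and CYP26A1 and raised none of the 5 genes. In this comparison 15.4% of all genes were called lower and 15.9% higher, so 3 falls among 5 genes have to be read against a large background. ALDH1A2 and the second DHRS3 gene were not called in the main fit. With the set as a replicate block the second DHRS3 gene passed as lower (-1.80, limma adjusted p = 0.023). The CYP26A1 call ended without the set numbered 25 to 36 (-0.15, limma adjusted p = 0.12). The valproic acid and retinoic acid comparisons use the same 8 control libraries, so their values are not independent.

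The fall of rxrbb was the largest of the 3 called ones. Its lowest, median and highest values were 7.50, 7.95 and 8.51 in valproic acid libraries, against 8.90, 8.97 and 9.17 in control libraries. The groups did not overlap, which held for 2.78% of all genes in this direction. The difference of -0.98 (SE 0.121, interval -1.23 to -0.73, limma adjusted p = 2e-07) put the level at 0.507 times that of control. It was -1.22 in title numbers 1 to 12, -1.0 in 13 to 24, -0.52 in 25 to 36 and -1.18 in 37 to 48, with no detectable difference between the sets (limma F test, adjusted p = 0.50).

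The first DHRS3 gene had a lowest, median and highest value of 10.71, 11.20 and 11.37 in valproic acid libraries, against 11.28, 11.57 and 11.87 in control libraries. The ranges overlapped slightly, and within each of the 4 sets both valproic acid libraries lay below both control libraries. The share of all genes with this layout was not counted, so it is a description only. The difference was -0.48 (SE 0.10, limma adjusted p = 0.00038), or 0.716 times the control level. Over the sets it ran from -0.69 to -0.18. In valproic acid the two-sided exact permutation tests of 8 against 8 libraries gave p = 0.000155 for rxrbb, the smallest they can give, 0.000777 for this gene and 0.0087 for CYP26A1.

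CYP26A1 had a lowest, median and highest value of 12.07, 12.69 and 12.88 in valproic acid libraries, against 12.67, 12.93 and 13.03 in control libraries. The 2 lowest libraries, at 12.24 and 12.07, were those numbered 25 to 36. The difference of -0.31 (SE 0.0829, limma adjusted p = 0.0046) was not even over the sets. It was 0.02 in numbers 1 to 12, -0.18 in 13 to 24, -0.78 in 25 to 36 and -0.28 in 37 to 48, and these sizes differed (limma F test of valproic acid with set, adjusted p = 0.029), which 1.98% of all genes did. Without the set numbered 25 to 36 the difference was -0.15 and no longer passed (adjusted p = 0.12). Relative depth in that set was 18 and 34 in the valproic acid libraries, against 47 and 19 in the control libraries, and its part was not tested.

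The second DHRS3 gene varied over the sets even more in valproic acid. It had 42 and 39 estimated reads in the valproic acid libraries numbered 1 to 12, against 9 and 27 in control. In numbers 13 to 24 it had 0 and 0 reads in valproic acid, against 31 and 68 in control. In numbers 25 to 36 it had 0 and 0 reads in valproic acid, against 2 and 0 in control. In numbers 37 to 48 it had 6 and 9 reads in valproic acid, against 35 and 31 in control. The valproic acid libraries were thus lower in 2 sets and could not be told from control at this depth in the set numbered 25 to 36. In the set numbered 1 to 12 their normalized values, 5.61 and 5.44, lay between the control values of 3.66 and 6.11. The difference of -1.80 over all libraries (interval -3.73 to 0.12) did not pass (limma adjusted p = 0.15). With the set as a replicate block in the fit it passed (interval -3.08 to -0.53, limma adjusted p = 0.023). The size of the response differed between sets (limma F test, adjusted p = 0.00098), which 1.98% of all genes did. In the set numbered 13 to 24 it was -5.73, with valproic acid at 0 reads, so that size is not exact and it enters the test. Without the set numbered 25 to 36 the difference was -2.42 and passed (adjusted p = 0.0081).

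ALDH1A2 had a lowest, median and highest value of 11.76, 12.07 and 12.28 in valproic acid libraries, against 11.80, 11.93 and 12.18 in control libraries. The groups overlapped over most of their range. The difference was 0.09 (SE 0.0787, interval -0.07 to 0.25, limma adjusted p = 0.44), so a fall of the size seen with retinoic acid lies outside the interval.

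**Figure D4:**
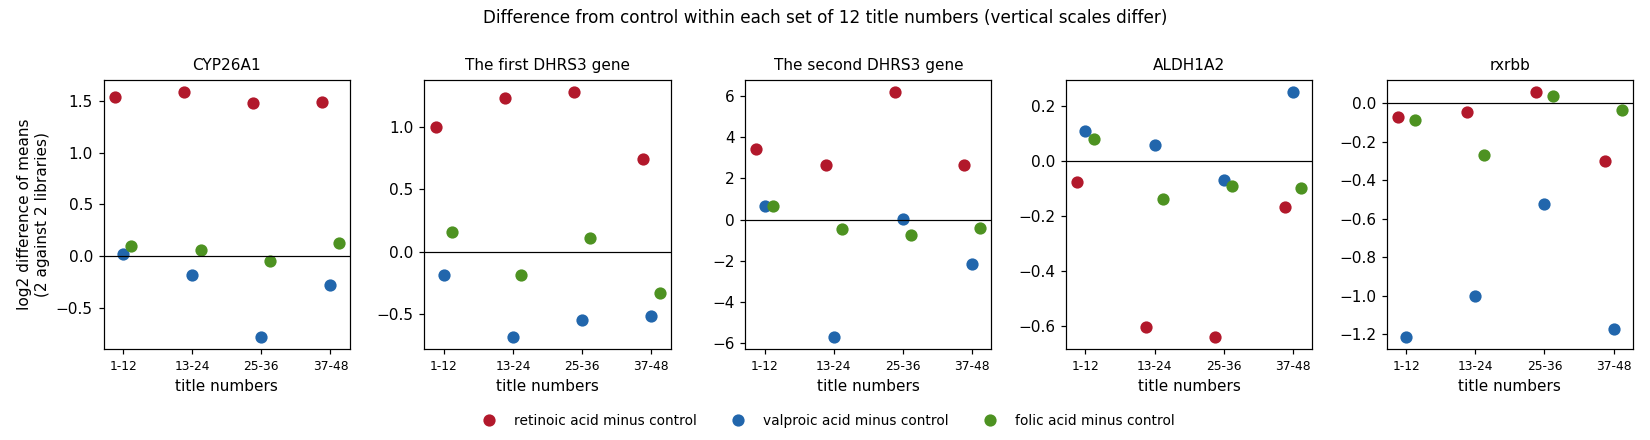
Log2 difference from control of the 5 genes (vertical axes, scales differ between panels) within each set of 12 title numbers, 2 libraries against 2. Retinoic acid points of CYP26A1 stay between 1.48 and 1.59, while its valproic acid points run from 0.02 to -0.78. Valproic acid points of the second DHRS3 gene run from 0.64 to -5.73, where valproic acid had 0 estimated reads and the size is not exact.

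None of the 5 genes passed the threshold in folic acid. In limma 0 of 15710 genes, or 0%, were called, and 507 genes had an unadjusted p under 0.05. The differences from control were 0.06 for CYP26A1 (interval -0.11 to 0.22), -0.06 for the first DHRS3 gene (-0.27 to 0.14), -0.06 for ALDH1A2 (-0.22 to 0.10) and -0.09 for rxrbb (-0.34 to 0.16). None of these intervals reaches the differences that retinoic acid gave for CYP26A1 and the first DHRS3 gene. That of the second DHRS3 gene, from -2.17 to 1.68 around -0.24, is much wider. In that gene folic acid had the same layout over the sets as control, with 0 and 0 estimated reads in the libraries numbered 25 to 36, against 2 and 0 in control, and 6 to 42 reads in the other folic acid libraries, against 9 to 68 in control.

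The order of the 4 groups differed from gene to gene. For CYP26A1 the means ran 14.43 ± 0.048 in retinoic acid, 12.60 ± 0.30 in valproic acid, 12.97 ± 0.087 in folic acid and 12.91 ± 0.11 in control (SD, n = 8 each). Folic acid and control did not differ beyond their spread, retinoic acid was called higher than both and valproic acid lower than both. For the first DHRS3 gene the means were 12.65 ± 0.19 in retinoic acid, 11.11 ± 0.27 in valproic acid, 11.53 ± 0.16 in folic acid and 11.59 ± 0.20 in control, with the same calls. For ALDH1A2 they were 11.58 ± 0.18 in retinoic acid, 12.04 ± 0.17 in valproic acid, 11.89 ± 0.13 in folic acid and 11.96 ± 0.14 in control. Retinoic acid was the lowest, and no pair among valproic acid, folic acid and control was called. For rxrbb they were 8.91 ± 0.26 in retinoic acid, 8.02 ± 0.34 in valproic acid, 8.91 ± 0.19 in folic acid and 9.0 ± 0.097 in control, and valproic acid was called lower than each of the other groups. Against folic acid, 14.4% of all genes were called lower in valproic acid, CYP26A1, the first DHRS3 gene and rxrbb among them. For the second DHRS3 gene they were 8.18 ± 0.74 in retinoic acid, 2.64 ± 2.20 in valproic acid, 4.20 ± 2.53 in folic acid and 4.44 ± 2.35 in control. Retinoic acid was called higher than valproic acid and folic acid but not than control (limma adjusted p = 0.051), and no pair without retinoic acid was called. With the set as a replicate block, retinoic acid passed against control (limma adjusted p = 0.00029), and so did valproic acid (0.023).

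Set against each other in the same fit, retinoic acid and valproic acid differed in all 5 genes, against 14.5% of all genes called higher and 15.5% called lower in retinoic acid. Doses are not in the labels, so this compares the libraries and not the compounds at matched strength. The difference, retinoic acid minus valproic acid, was 1.83 for CYP26A1 (limma adjusted p = 9.1e-18), 1.54 for the first DHRS3 gene (adjusted p = 7.5e-14) and 5.54 for the second (adjusted p = 3e-05). It was 0.89 for rxrbb (adjusted p = 8.4e-07) and -0.46 for ALDH1A2 (adjusted p = 3e-05). Against folic acid, retinoic acid was called higher in CYP26A1 (1.46) and in both DHRS3 genes (1.13 and 3.98), where 0.662% of all genes were called higher. It was called lower in ALDH1A2 (-0.31, limma adjusted p = 0.045), where 0.204% of all genes were. The ALDH1A2 call ended in 18 of the 32 fits that left out 1 library (-0.34 to -0.27 over all 32). That of the second DHRS3 gene ended without retinoic acid replicate 2 (3.92) or 4 (3.87), and without replicate 5 or 6 of folic acid (3.40 each). The sizes of 5.54 and 3.98 for this gene are not exact. It had 0 estimated reads in 4 of 8 valproic acid and 2 of 8 folic acid libraries.

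The other genes of the pathway were taken from 5 lists of retinoid synthesis, retinal reduction, retinoic acid removal, binding and transport, and receptors, with 38 measured genes including the 5. In retinoic acid 3 of the 38 were called higher and 1 lower, where 0.592% and 0.14% of all genes were. The median difference was 0.07, against -0.01 over all genes. Outside the 5 genes the only call of the main fit among the remaining 33 was raraa, a retinoic acid receptor alpha gene. Its lowest, median and highest values were 10.57, 10.90 and 11.32 in retinoic acid, against 9.57, 10.05 and 10.24 in control, so that the groups did not overlap. The difference was 0.94 (SE 0.15, limma adjusted p = 0.00018), and the call ended with 1 mean per group and set in place of 2 libraries (adjusted p = 0.058). Without retinoic acid replicate 3 raraa kept its call (0.88, limma adjusted p = 0.00068). A CRABP2 gene (ENSDARG00000030449), whose product carries retinoic acid to the receptors, then also passed (0.31, adjusted p = 0.013). With the set as a replicate block, 3 of the 33 were called higher, against 0.936% of all genes, and 0 lower, against 0.331%.

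In valproic acid 11 of the 38 genes were called lower and 5 higher, where 15.4% and 15.9% of all genes were, and the median difference was -0.17, against -0.01 over all genes. Without the 5 genes, 8 of the remaining 33 were called lower and 5 higher, with a median of -0.13. In folic acid 0 of the 38 were called in limma. The plot of the retinoid lists shows that the receptors lay mostly below control in valproic acid and the synthesis genes on both sides.

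**Figure D5:**
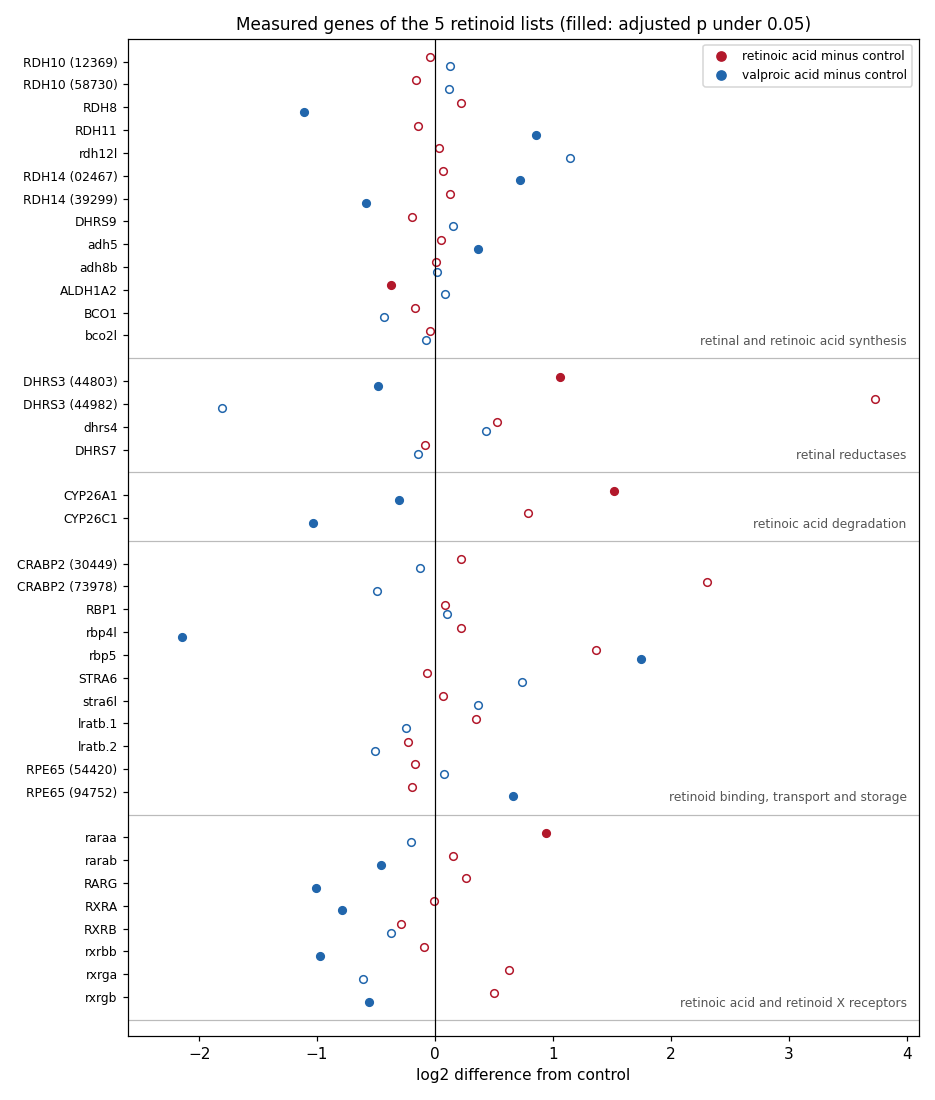
Log2 difference from control (horizontal axis) in retinoic acid and valproic acid for the 38 measured genes of the 5 retinoid lists, grouped by list, with filled points where the adjusted p was under 0.05 and the last 5 digits of the identifier where genes share a name. All 8 receptor genes have a valproic acid point below 0, and 5 of them are filled.

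Of the 8 measured genes of the retinoic acid and retinoid X receptors, 5 were called lower in valproic acid, against 15.4% of all genes, and none higher, with a median of -0.59. This count includes rxrbb, which is among the 5 genes chosen with earlier results known. In retinoic acid 1 was called higher (raraa), against 0.592% of all genes, and none lower, with a median of 0.21. Besides rxrbb, the falls in valproic acid were in RARG, a gamma receptor gene (-1.01, SE 0.30, limma adjusted p = 0.0094), RXRA (-0.79, adjusted p = 0.029), rxrgb (-0.56, adjusted p = 0.0049) and the alpha receptor gene rarab (-0.46, adjusted p = 4.1e-05). The differences of raraa (-0.21), rxrga (-0.61) and RXRB (-0.37) did not pass. The second gene of the retinoid X receptor beta pair, named RXRB (ENSDARG00000078954), had adjusted p = 0.18, and whether it differed from rxrbb in its response was not tested. With the set as a replicate block, 6 of the 8 receptors were called lower, against 18.6% of all genes. When the set numbered 13 to 24 was left out, RARG (-0.74, adjusted p = 0.15) and RXRA (-0.53, adjusted p = 0.25) were not called and 3 of the 8 receptors were. RXRA was also not called without replicate 1, 3 or 6 of valproic acid or 1, 3 or 4 of control (-0.74 to -0.67), and rxrgb was not called without the set numbered 37 to 48 (-0.45, adjusted p = 0.062). How reads shared between such paralogs, the DHRS3 pair included, were counted is not given in the sources used here.

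In the list of removal enzymes, CYP26C1, a relative of CYP26A1, had a lowest, median and highest value of 6.07, 6.87 and 8.21 in retinoic acid, 4.04, 5.36 and 6.18 in valproic acid and 5.41, 6.0 and 7.18 in control. It fell in valproic acid by 1.03 (limma adjusted p = 0.018), a call that ended without the set numbered 13 to 24 (-0.83, adjusted p = 0.11). Its difference of 0.79 in retinoic acid, with an interval of 0.11 to 1.48, did not pass over all genes (adjusted p = 0.68). CYP26B1, the other enzyme of this kind, was not among the genes analysed here.

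Among 13 genes listed under synthesis, ALDH1A2 was the only call in retinoic acid. In valproic acid 3 were called higher and 2 lower, which is near the shares of all genes, 15.9% and 15.4%. These were RDH14 (ENSDARG00000002467) at 0.72 (limma adjusted p = 1.3e-05), RDH11 at 0.86 and adh5 at 0.36, and on the other side RDH8 at -1.11 (adjusted p = 4.2e-05) and a second RDH14 gene (ENSDARG00000039299) at -0.59. RDH11 was not called without the set numbered 1 to 12 (0.69, adjusted p = 0.083) or 25 to 36 (0.70, adjusted p = 0.069). The RDH genes and adh5 are named as dehydrogenases. Which way each acts between retinol and retinal in the embryo was not tested, so the list name gives no direction. Among 11 binding, transport and storage genes, valproic acid called rbp5 (1.75) and an RPE65 gene (ENSDARG00000094752, 0.66) higher and the retinol-binding protein gene rbp4l (-2.15, adjusted p = 0.00015) lower, and retinoic acid called none. Of all genes, valproic acid called 15.9% higher and 15.4% lower. With the set as a replicate block, retinoic acid called 2 of the 11 higher, against 0.936% of all genes. Valproic acid then called 3 higher and 2 lower, against 18.5% and 18.6% of all genes. The RPE65 call ended without the set numbered 13 to 24 (0.40, adjusted p = 0.20) or 25 to 36 (0.61, adjusted p = 0.063), and with 1 mean per group and set (adjusted p = 0.070). The largest difference of that list in retinoic acid was in the second CRABP2 gene (ENSDARG00000073978), at 2.31 with adjusted p = 0.20, and it was named after its value was seen.

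Corepressors and coactivators link the receptors to chromatin enzymes. Of 19 measured, 8 were called lower in valproic acid, against 15.4% of all genes, and none higher, against 15.9%, with a median of -0.22. None was called in retinoic acid, against 0.732% of all genes. The smallest adjusted p-values were those of both CREBBP genes, which encode histone acetyltransferases (ENSDARG00000104609 at -0.58, limma adjusted p = 1.8e-07, and ENSDARG00000112452 at -0.61, adjusted p = 1.7e-05), the corepressor gene tbl1xr1a at -0.36 and an EP300 gene (ENSDARG00000100666) at -0.38. The list also holds TBL1X at -0.17 and tbl1xr1b at -0.29, which were both not called without the set numbered 1 to 12 (adjusted p = 0.20 and 0.13). Of 9 other nuclear receptors that pair with retinoid X receptors, 1 was called higher in valproic acid, against 15.9% of all genes, and none in retinoic acid. It was a PPARD gene (ENSDARG00000044525) at 1.11 (limma adjusted p = 0.045). The PPARD call ended without any 1 of the 4 sets.

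Genes whose values followed each of the 5 most closely over the 32 libraries were found by Pearson correlation, given here as a description. Differences between groups enter this correlation, so the correlation after removing group means is given beside it, over the same 32 libraries. For CYP26A1 the closest was the FGF feedback phosphatase gene DUSP6 (r = 0.93, rho = 0.81), which fell to r = 0.07 with group means removed. It was followed by hephl1a (0.92 and 0.60) and HOXA3 (0.91 and 0.42). For the first DHRS3 gene these included tiparp (0.95 and 0.63) and hephl1a (0.93 and 0.50). For the second DHRS3 gene they were skap1 (0.92 and 0.84), grin3ba (0.90 and 0.81) and the zinc finger gene zbtb16b (0.90 and 0.89), so these also shared its differences between libraries of the same group. For ALDH1A2 they were ITGB8 (0.79 and 0.62), the BMP antagonist gene chrd (0.77 and 0.70) and arhgef37 (0.75 and 0.44). For rxrbb they were ZNF711 (0.94 and 0.73), SCAMP2 (0.93 and 0.71) and EPC1 (0.92 and 0.63).

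Among the 5 genes themselves, with group means removed, the 2 DHRS3 genes varied together (r = 0.53, rho = 0.55, n = 32 libraries). CYP26A1 and rxrbb varied in opposite directions (r = -0.60, rho = -0.44). Within valproic acid, replicates 5 and 6, of the set numbered 25 to 36, had the lowest CYP26A1 (12.24 and 12.07) and the highest rxrbb (8.46 and 8.51). The relation without them was not tested. ALDH1A2 had no clear relation to CYP26A1 (r = -0.06, rho = -0.12). The libraries share sets of title numbers and differ in depth, so these values describe the table and not the embryos of 1 group.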

How the data were processed

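Polyadenylated RNA of whole embryos was made into directional libraries and sequenced, per the labels' protocols. The deposited table holds normalized log2 expression, 1 column per library. The submitters' processing notes name HTSeq 0.11.0, limma and the build GRCz11. No aligner, filter or normalization is named in the sources used here. The 1000 highest ranked values of any 2 libraries differed by at most 0.03, as quantile normalization gives, so a change in total RNA would not be seen.

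Groups were taken from the treatment label, and replicates were numbered in accession order. limma 3.58.1 in R 4.3.3 was fitted to all 15710 genes and 32 libraries with a mean per group and an intensity trend. F tests used group and set, with and without their interaction. The fit was also run on simulated data in which the residuals of each gene were shuffled over all libraries. The shuffling removes differences shared within a set, so that run cannot show how the fit behaves with them. Exact permutation tests used scipy 1.17.1.

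The genes, the lists and the rule for named genes were chosen with earlier results of these data known. The rule takes the 5 genes, all receptors and removal enzymes, list genes called in retinoic acid, up to 6 called genes per list in valproic or folic acid, and the 3 most correlated genes. One gene that the rule takes is not reported here. Of 104 list names, 99 matched an identifier, and 66 genes were measured. A name without a paralog letter can stand for either copy. No genome or sequence table was used.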

Additional observations from a re-analysis of the deposited data

Results flagged for a closer look

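The response to valproic acid differed between the sets of title numbers in 2 of the 5 genes, by an F test of the interaction in limma, against 1.98% of all genes. For CYP26A1 the adjusted p was 0.029, with differences from control between -0.78 and 0.02 over the sets. For the second DHRS3 gene it was 0.00098, with differences between -5.73 and 0.64. The value of -5.73 is not exact, since valproic acid had 0 estimated reads in that set. The cause of the differences between sets was not tested.

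Single libraries far from the other 7 of their group were looked for in 28 genes and 4 groups, and 13 of 112 groups (11.6%) held one, where chance gives about 5%. None was in the 5 genes. Even so, retinoic acid replicate 3 had the most extreme value of its group in all 5, short of this rule. It was highest in CYP26A1 (14.51), the first DHRS3 gene (12.99) and the second (9.09). In ALDH1A2 (11.28) and rxrbb (8.67) it was lowest. Retinoic acid replicate 3 gave 8 of the 13. It was lowest in RXRB (9.75, group median 11.35), rarab (11.31, median 11.73), tbl1xr1b (9.27, median 10.06), EP300 ENSDARG00000100666 (10.69, median 11.66), CREBBP ENSDARG00000104609 (10.61, median 11.12), CREBBP ENSDARG00000112452 (11.99, median 12.83) and PPARD ENSDARG00000044525 (0.90, median 4.19), and highest in adh5 (10.86, median 10.15). In valproic acid, replicate 6 was lowest in RDH14 ENSDARG00000002467 (8.83, median 9.34) and replicate 4 in rarab (10.71, median 11.13). In folic acid, replicate 6 was lowest in rbp4l (3.88, median 5.65) and replicate 7 highest in rxrgb (8.38, median 7.74). In control, replicate 3 was lowest in PPARD ENSDARG00000044525 (3.88, median 4.71).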

How the results depend on the processing

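The direction and call of each of the 5 genes in 6 comparisons were recomputed under 11 other settings. Of 324 values, 297 kept both, 16 lost the call, 7 gained one and 4 changed sign. Libraries of the same set of title numbers varied together. The correlation of their deviations exceeded 0.1 in 20 of 24 pairs of groups and sets (range -0.12 to 0.59), and 20 of 24 correlated best with their own set. The other 4 did not exceed 0.1, and the main fit did not take the sets as pairs. The sets share differences even so, and this choice decided calls of the second DHRS3 gene. With the set as a replicate block, the second DHRS3 gene passed in retinoic acid against control (3.74, adjusted p = 0.00029) and in valproic acid against control (-1.80, adjusted p = 0.023). The block gave 199 called genes in retinoic acid against control (115 without it), 221 against folic acid, and 6 rises in the 5 retinoid lists. It changed no other call of the 5 genes.

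In retinoic acid against control, the second DHRS3 gene also passed in the fit of 2 groups (3.74, adjusted p = 0.010), without the set numbered 25 to 36 (2.91) and with library weights (3.58). ALDH1A2 lost its call with the mean of 2 libraries per group and set (-0.37, adjusted p = 0.15) and without numbers 13 to 24 (-0.30) or 25 to 36 (-0.28), which each left 0 falls in the retinoid lists. Library weights gave 5 rises in these lists. Called genes numbered 36 with means of 2 libraries, 72 without numbers 1 to 12 and 65 without 37 to 48. With means, 0 receptors were called higher.

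In valproic acid against control, leaving out numbers 25 to 36 gave -0.15 for CYP26A1, -2.42 for the second DHRS3 gene and 3 rises in the retinoid lists. Means of 2 libraries gave 3 receptor and 4 coregulator falls, leaving out 13 to 24 gave 3 receptor falls, and leaving out 1 to 12 gave 5 coregulator falls. Of 251 values of 23 called list genes, 217 kept their call and 34 lost it, a comparison chosen after seeing the data, as were the list counts. In folic acid against control, the first DHRS3 gene turned to 0.027 without 37 to 48. Against folic acid, the second DHRS3 gene was at -2.34 in valproic acid without 25 to 36 and then passed.

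In retinoic acid against folic acid, the second DHRS3 gene lost its call without the trend or with means (3.98 each), and without numbers 1 to 12 (4.37), 13 to 24 (4.26) or 37 to 48 (4.29). ALDH1A2 lost its call without the trend, with means and in the fit of 2 groups (-0.31 each), and without 1 to 12 (-0.36), 13 to 24 (-0.26), 25 to 36 (-0.23) or 37 to 48 (-0.39). The rxrbb difference of -0.00 changed sign with median centring (0.00074), library weights (0.0050) and without 37 to 48 (0.087). Called genes were 54 with means and 73 without 37 to 48. Beyond the smaller number of libraries or values in some of these fits, the cause was not tested.

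Leaving out 1 library at a time, retinoic acid against control ranged from 1.49 to 1.54 for CYP26A1, 1.01 to 1.1 for the first DHRS3 gene, -0.41 to -0.33 for ALDH1A2 and 3.23 to 4.04 for the second DHRS3 gene, which passed in 9 of 32 fits (leaving out replicate 1, 2, 3 or 6 of valproic acid, 5 or 6 of folic acid, or 2, 3 or 4 of control). Against folic acid the range was 3.40 to 4.26 for the second DHRS3 gene (4 calls lost), -0.34 to -0.27 for ALDH1A2 (18 lost, without 5 retinoic acid, 6 folic acid, 3 valproic acid or 4 control libraries) and -0.060 to 0.035 for rxrbb (10 sign changes). Folic acid against control ranged from -0.75 to 0.33 for the second DHRS3 gene (4 sign changes). A filter on a mean above 5 removed that gene, so it has no value there. At the depth of these libraries, 0 reads of it cannot be told from 3.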
